A study of Mus musculus with 18 samples.

Results

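Sperm small RNA of unexposed F2 males was compared with that of unexposed F0 males, 6 of the 18 libraries of a mouse study. The members were taken by label: F2_Con replicates 1 to 3 and F0_Con replicates 1 to 3, all from male ICR mice, an outbred strain. The study followed ammonia and hydrogen sulphide, given to F0_NHS males for 5 weeks from 3 weeks of age, into the sperm of their untreated F1 and F2 descendants, with a control group in each generation. Neither F2_Con nor F0_Con males received the gases, so the comparison measures how far control sperm differed between the ends of the design. F1_Con sperm, quoted beside some values, came from the unexposed control males of the generation between, which were mated at 8 weeks of age. The labels give no allele, no age at collection for the control males, no account of how F2_Con males descend from F0_Con males, and nothing on whether replicates come from different animals. Each p-value is therefore set against library-to-library spread, part of which may be technical. Generation, cohort, date of collection and date of sequencing cannot be told apart in these groups.

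Mature sperm is nearly silent in transcription and carries small RNAs made in the testis or taken up during passage through the epididymis. A miRNA is cut from a hairpin with a 5p and a 3p arm and pairs with messages mainly through its seed, bases 2 to 8 from the 5′ end. piRNAs guard germ cells against transposons, are longer than miRNAs and tend to begin with U, while fragments of tRNA make up much of the small RNA of ripe sperm.

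A selection of miRNA arms is shown first. It is not ranked by reads, and miR-143, the most read called miRNA, is not in it. All but miR-449a-5p and miR-429-3p, shown as uncalled relatives, belong to miRNAs that passed the test, and the arm printed was the main arm in all 6 libraries, except for miR-449a, whose 5p arm held 7.19% to 93.4% of reads, and for miR-5100 and miR-451a, listed with no partner arm. Sequences are RefSeq's (GRCm38.p6), 5′ to 3′, with the seed in capitals.
miR-34b-3p: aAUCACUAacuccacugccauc
miR-34c-3p: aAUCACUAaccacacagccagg
miR-449a-5p: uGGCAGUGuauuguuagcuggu
miR-127-3p: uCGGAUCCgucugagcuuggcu
miR-5100: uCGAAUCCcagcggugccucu
miR-200b-3p: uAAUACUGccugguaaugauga
miR-200c-3p: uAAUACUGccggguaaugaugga
miR-429-3p: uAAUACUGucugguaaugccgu
miR-19a-3p: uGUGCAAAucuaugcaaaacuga
miR-19b-3p: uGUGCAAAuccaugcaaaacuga
miR-101a-3p: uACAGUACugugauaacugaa
miR-144-3p: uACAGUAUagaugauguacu
miR-451a: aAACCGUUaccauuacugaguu
miR-206-3p: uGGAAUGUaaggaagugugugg
A few seeds were shared by called miRNAs when only the most read arm of each was considered. Seeds of the other arms were not compared here. AUCACUA joined miR-34b and miR-34c, both higher. GUGCAAA joined miR-19a and miR-19b, both lower. AAUACUG joined miR-200b and miR-200c, both lower, with miR-429, which was not called. miR-34b-3p lies at chr9:51103574-51103595 and miR-34c-3p at chr9:51103044-51103065, both on the minus strand, and the miR-34b arm lies opposite an intron of Btg4. miR-200b-3p (chr4:156055685-156055706) and miR-429-3p (chr4:156053916-156053937) are neighbours on the minus strand, miR-200b inside an intron of Gm13648 and Ttll10. miR-19a-3p (chr14:115044048-115044070) and 1 of the 2 copies of miR-19b-3p (chr14:115044358-115044380) lie in the exon of Mir17hg, the host of the miR-17-92 cluster. miR-144-3p (chr11:78073047-78073066) and miR-451a (chr11:78073186-78073207) are also neighbours.

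The 6 lists held 18,072,900 to 26,131,625 reads, so 1 TPM (a count per 1000000 library reads, with no length term) rests on at least 18.1 reads. One entry set libraries apart whatever their group. The predicted miRNA novel_mir1, which overlaps the tRNA-Ala gene n-TAcgc10, stood at 18,720, 5399 and 85.6 TPM in F2_Con replicates 1, 2 and 3, against 82.1, 5685 and 120 TPM in F0_Con replicates 1, 2 and 3. F2_Con replicates 1 and 2 and F0_Con replicate 2 were thus high, and F2_Con replicate 3 and F0_Con replicates 1 and 3 low. The split crosses both groups, so differences are also given within each set of libraries: 1 F2_Con against 2 F0_Con libraries in the low set, 2 against 1 in the high set. Over the tested known miRNAs Spearman's rho between libraries was 0.921 to 0.957 within F2_Con, 0.930 to 0.967 within F0_Con and 0.879 to 0.922 between the groups.

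Known miRNAs took a smaller share of reads in F2_Con sperm. They made up 32.3%, 20.3% and 29.7% of reads in the F2_Con libraries, against 51.8%, 40.6% and 57.4% in the F0_Con libraries. The groups did not overlap. The means were 27.4% ± 6.33 in F2_Con and 49.9% ± 8.56 in F0_Con (SD, n = 3 each), a difference of -22.5 points (exact permutation test, two-sided, p = 0.1, the smallest that 3 against 3 libraries allow; 0.167 after adjustment over 10 classes). The difference was -24.9 points within the low set and -14.3 points within the high set. F1_Con sperm, the control group between them, averaged 21.1% ± 10.2 (SD, n = 3).

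The classes that took larger shares in each F2_Con library than in any F0_Con library numbered 5, all with the same exact permutation p = 0.1 and 0.167 after adjustment. Known piRNAs averaged 8.45% ± 2.48 in F2_Con and 3.97% ± 1.35 in F0_Con (SD, n = 3 each). Reads in introns averaged 12.6% ± 1.87 in F2_Con and 7.82% ± 0.38 in F0_Con, and intergenic reads 6.91% ± 0.465 in F2_Con and 3.66% ± 0.955 in F0_Con. Predicted piRNAs averaged 1.80% ± 0.833 in F2_Con and 1.08% ± 0.127 in F0_Con, and predicted siRNAs 0.0609% ± 0.0259 in F2_Con and 0.0297% ± 0.00457 in F0_Con. These 5 differences had the same sign within both sets of libraries. Without F2_Con replicate 2 the predicted piRNA difference was 0.234 points, against 0.715 with it, and the predicted siRNA difference 0.0181 points, against 0.0312 with it. Repeat reads averaged 31.2% ± 2.68 in F2_Con and 21.4% ± 6.4 in F0_Con, with F0_Con replicate 2 (28.6%) above F2_Con replicate 3 (28.1%; exact permutation p = 0.2). Rfam families, exon reads and predicted miRNAs overlapped between the groups (exact permutation p of 1, 0.8 and 0.8), and each of these 3 differences changed sign when a single library was left out. Shares sum to the whole, so a smaller miRNA share raises the others, and in bulk sperm fewer cells of a type and less RNA per cell cannot be told apart.

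**Figure D1:**
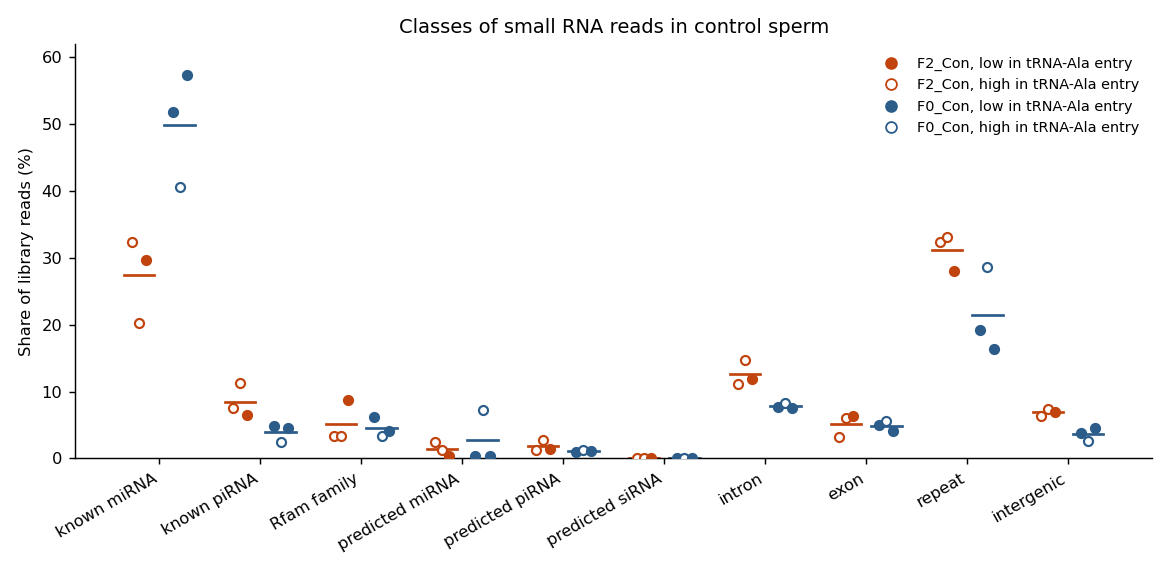
Share of library reads (%) in each class of small RNA for the 3 F2_Con (left, orange) and 3 F0_Con (right, blue) libraries; bars are group means and open points are libraries high in the tRNA-Ala entry. The known miRNA points lie between 20.3% and 32.3% in F2_Con and between 40.6% and 57.4% in F0_Con.

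Within the miRNA class, 57 of 454 tested miRNAs (12.6%) differed between F2_Con and F0_Con at an edgeR adjusted p below 0.05, 28 higher (6.17%) and 29 lower (6.39%), with arms of a hairpin summed. Fold changes from this fit are relative to the other miRNAs, since scaling (TMM) was done within the class, and the median over all 454 was 0.05 on the log2 scale. With library totals as the scale that median became -0.58 and the split became 9 higher and 52 lower. All 29 lower calls held on that scale, while 9 of the 28 higher calls did and all 28 kept a positive sign. In TPM the 3 F2_Con libraries lay above the 3 F0_Con libraries for 38 miRNAs (8.37%) and below them for 127 (28%), 165 in all (36.3%). Of the called miRNAs, 22 of the 28 higher and 26 of the 29 lower had groups that did not overlap in TPM.

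The miR-34 pair of sperm stood highest among the called miRNAs that rose. miR-34b and miR-34c belong to the miR-34 and miR-449 family, known from multiciliated cells and from meiotic and haploid male germ cells. miR-34b stood at 10,601, 17,110 and 12,993 TPM in the F2_Con libraries, against 2864, 1881 and 3931 TPM in the F0_Con libraries. Every F2_Con library was above every F0_Con library (log2 fold change 2.89, SE 0.56, edgeR adjusted p = 0.0147). miR-34c stood at 7376, 4524 and 7926 TPM in F2_Con, against 1477, 1633 and 3001 TPM in F0_Con, again without overlap (2.29, SE 0.46, adjusted p = 0.0147). The 5p arm held at most 3.48% of miR-34b reads and 2.88% of miR-34c reads in any library, though with each arm as an entry of its own neither 3p arm was called (edgeR adjusted p = 0.102 for miR-34b-3p and 0.114 for miR-34c-3p). Their relatives miR-34a (758, 566 and 4167 TPM in F2_Con, against 2060, 1174 and 1364 TPM in F0_Con) and miR-449a (653, 536 and 935 TPM in F2_Con, against 1754, 502 and 949 TPM in F0_Con) overlapped and were not called. Of the 6 family members listed, 4 could be tested, and 2 rose and 0 fell, against 6.17% called higher over all miRNAs. Their median log2 fold change was 1.57. The family took 6.0%, 11.2% and 8.77% of miRNA reads in the F2_Con libraries, against 1.57%, 1.28% and 1.61% in the F0_Con libraries, and 8.43% ± 2.08 in F1_Con (SD, n = 3).

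The X-linked cluster of testis miRNAs (miR-506 superfamily), expressed mainly in the testis, gave 2 calls among 19 tested members, both higher, against 6.17% called higher over all miRNAs, so the count does not set the cluster apart. miR-871 stood at 2335, 1425 and 1676 TPM in F2_Con, against 930, 246 and 313 TPM in F0_Con (log2 fold change 2.56, SE 0.53, edgeR adjusted p = 0.0147). miR-465c stood at 5079, 4397 and 4689 TPM in F2_Con, against 4074, 1151 and 1774 TPM in F0_Con (1.71, SE 0.46, adjusted p = 0.0412). Neither overlapped between the groups, and neither held with library totals as the scale (adjusted p = 0.0737 for miR-871 and 0.271 for miR-465c). The most read members beside them, miR-470 (2.08, SE 0.66, adjusted p = 0.051) and miR-471 (1.78, SE 0.67, adjusted p = 0.088), missed the threshold. Over the 19 members 14 had a positive log2 fold change, with a median of 0.91 (0.30 and 0 calls with library totals; edgeR gave 7 at an unadjusted p below 0.05 and DESeq2 called 7). The cluster took 4.52%, 5.20% and 5.03% of miRNA reads in the F2_Con libraries, against 2.14%, 0.652% and 1.14% in the F0_Con libraries. The members miR-465a, miR-465b, miR-465c and miR-465d are near-identical, and reads shared among them may have been split.

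**Figure D2:**
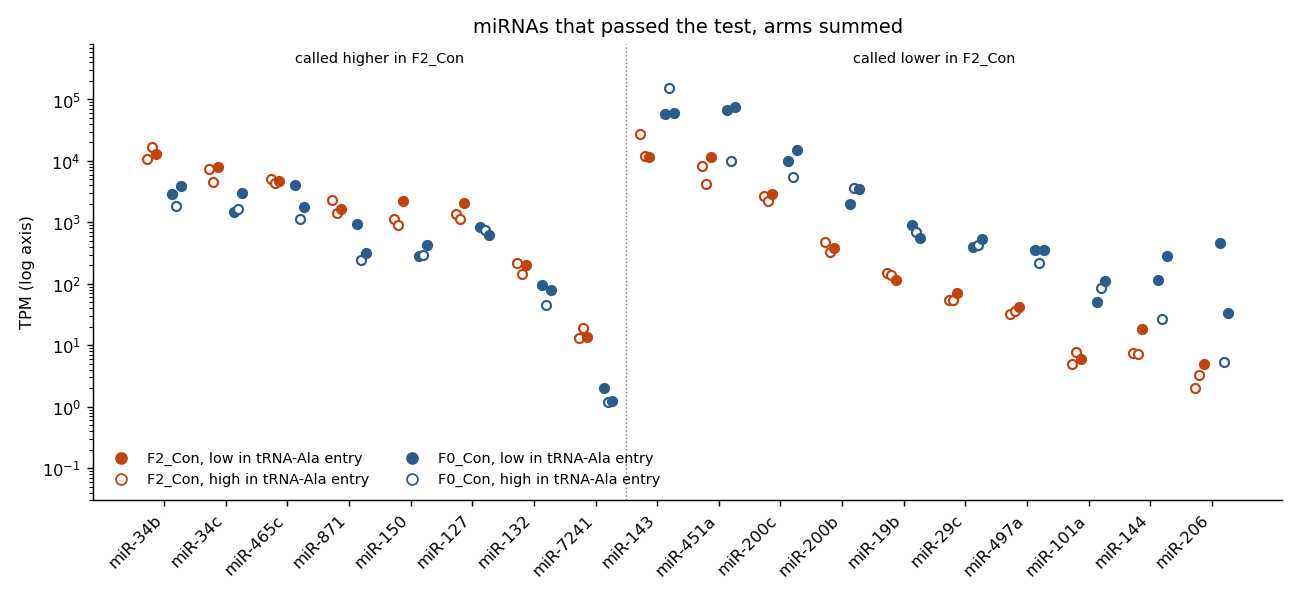
TPM (log axis) of 18 called miRNAs with arms summed, each with its 3 F2_Con libraries on the left (orange) and its 3 F0_Con libraries on the right (blue); open points are libraries high in the tRNA-Ala entry. miR-34b lies at 10,601 TPM or more in the F2_Con libraries and at 3931 TPM or less in the F0_Con libraries, and the groups of miR-451a overlap.

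Lists of markers of cells other than sperm are read against the 6.39% of all miRNAs called lower and 6.17% called higher. Among epithelial and epididymal miRNAs, which help keep cells in an epithelial state, 3 of 9 fell and 0 rose, with a median log2 fold change of -1.21. miR-200b stood at 479, 327 and 377 TPM in F2_Con, against 1977, 3623 and 3506 TPM in F0_Con, and the groups did not overlap (-2.39, SE 0.50, edgeR adjusted p = 0.0147). miR-200c stood at 2738, 2224 and 2899 TPM in F2_Con, against 10,147, 5550 and 15,331 TPM in F0_Con (-1.33, SE 0.36, adjusted p = 0.0412). miR-96, a sensory and epithelial miRNA named here after its values were seen, fell as well (-1.32, SE 0.39, adjusted p = 0.0445). miR-429, which shares the seed of miR-200b and miR-200c, overlapped, at 4515, 2074 and 2502 TPM in F2_Con, against 4387, 6209 and 3291 TPM in F0_Con (-0.08, SE 0.55). The list took 3.41% to 3.49% of miRNA reads in F2_Con and 4.6% to 6.01% in F0_Con.

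Stromal and smooth muscle miRNAs gave 4 lower and 0 higher calls among 9, with a median of -1.93. miR-143, the mark of smooth muscle and the most read miRNA over the 6 libraries, stood at 27,736, 11,921 and 11,520 TPM in F2_Con, against 58,147, 154,126 and 60,076 TPM in F0_Con. F0_Con replicate 2 was far above the rest, yet each F0_Con library exceeded each F2_Con library (-1.93, SE 0.56, adjusted p = 0.0426). Without F0_Con replicate 2 its log2 fold change was -1.0 and the call was lost. miR-497a, which restrains the cell cycle, stood at 31.8, 35.5 and 42.5 TPM in F2_Con, against 356, 218 and 361 TPM in F0_Con (-2.45, SE 0.45, adjusted p = 0.0141). miR-195a, from the same cluster, fell too (-2.0, SE 0.55, adjusted p = 0.0412), and so did miR-152, named after its values were seen (-1.40, SE 0.40, adjusted p = 0.0425). The near-identical miR-199a and miR-199b were not called, and their values swapped between libraries: miR-199a at 5444, 3214 and 302 TPM in F2_Con, against 4824, 427 and 7343 TPM in F0_Con. The list took 5.75% to 11.2% of miRNA reads in F2_Con and 13.2% to 42.9% in F0_Con.

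Red blood cell miRNAs gave 2 lower calls among 4. miR-451a, made without Dicer and abundant in erythroid cells, stood at 8130, 4287 and 11,493 TPM in F2_Con, against 68,695, 9995 and 76,735 TPM in F0_Con. The groups overlapped, because F0_Con replicate 2 lay below F2_Con replicate 3 (-2.01, SE 0.55, adjusted p = 0.0414). Its cluster partner miR-144 stood at 7.44, 7.30 and 18.8 TPM in F2_Con, against 115, 27.0 and 286 TPM in F0_Con (-3.0, SE 0.81, adjusted p = 0.0412). The list took 2.17% to 3.97% of miRNA reads in F2_Con and 2.55% to 13.6% in F0_Con, and 11.0% ± 1.72 in F1_Con (SD, n = 3).

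Skeletal and cardiac muscle miRNAs gave 2 lower calls among 6, with a median of -2.41. miR-206, of skeletal muscle, stood at 2.05, 3.32 and 5.01 TPM in F2_Con, against 465, 5.29 and 33.5 TPM in F0_Con, a difference carried mostly by F0_Con replicate 1 (-4.79, SE 1.29, adjusted p = 0.0412; -1.66 and not called without that library). miR-133b, named after its values were seen, had a log2 fold change of -3.12 (SE 0.94, adjusted p = 0.0448). The list took 0.0765% to 0.0963% of miRNA reads in F2_Con and 0.137% to 0.369% in F0_Con. Liver miR-122 also fell, at 1.63, 4.48 and 6.31 TPM in F2_Con, against 55.2, 27.8 and 33.8 TPM in F0_Con (-2.58, SE 0.79, adjusted p = 0.0468), while the other members of the liver list, miR-192 (0.88) and miR-194 (0.35), were positive and not called. The liver list took a larger share of miRNA reads in each F2_Con library, 0.0971% to 0.16%, than in any F0_Con library, 0.0704% to 0.0949%.

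Of 10 leukocyte miRNAs tested 1 rose and 0 fell, a count that does not set the list apart from all miRNAs (6.17% called higher). Their log2 fold changes were positive for 6 and negative for 4, and the median of 0.44 turned to -0.21 with library totals, which gave 0 calls. miR-150, a lymphocyte miRNA, stood at 1135, 906 and 2211 TPM in F2_Con, against 288, 292 and 432 TPM in F0_Con, without overlap (2.65, SE 0.76, edgeR adjusted p = 0.0425; 0.0774 with library totals). The list took 1.97% to 4.32% of miRNA reads in F2_Con and 0.814% to 1.66% in F0_Con. The 2 endothelial and 7 neuronal miRNAs tested gave 0 calls by edgeR, 0 at an unadjusted p below 0.05 and 0 by DESeq2. Summed shares of miRNA reads did not overlap between the groups for the epithelial, stromal and muscle lists, lower in F2_Con, and for the liver and leukocyte lists, higher in F2_Con. They overlapped for the red blood cell, endothelial and neuronal lists. The part of these cell types in the class shares, in the miR-34 difference and in the other differences was not tested.

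**Figure D3:**
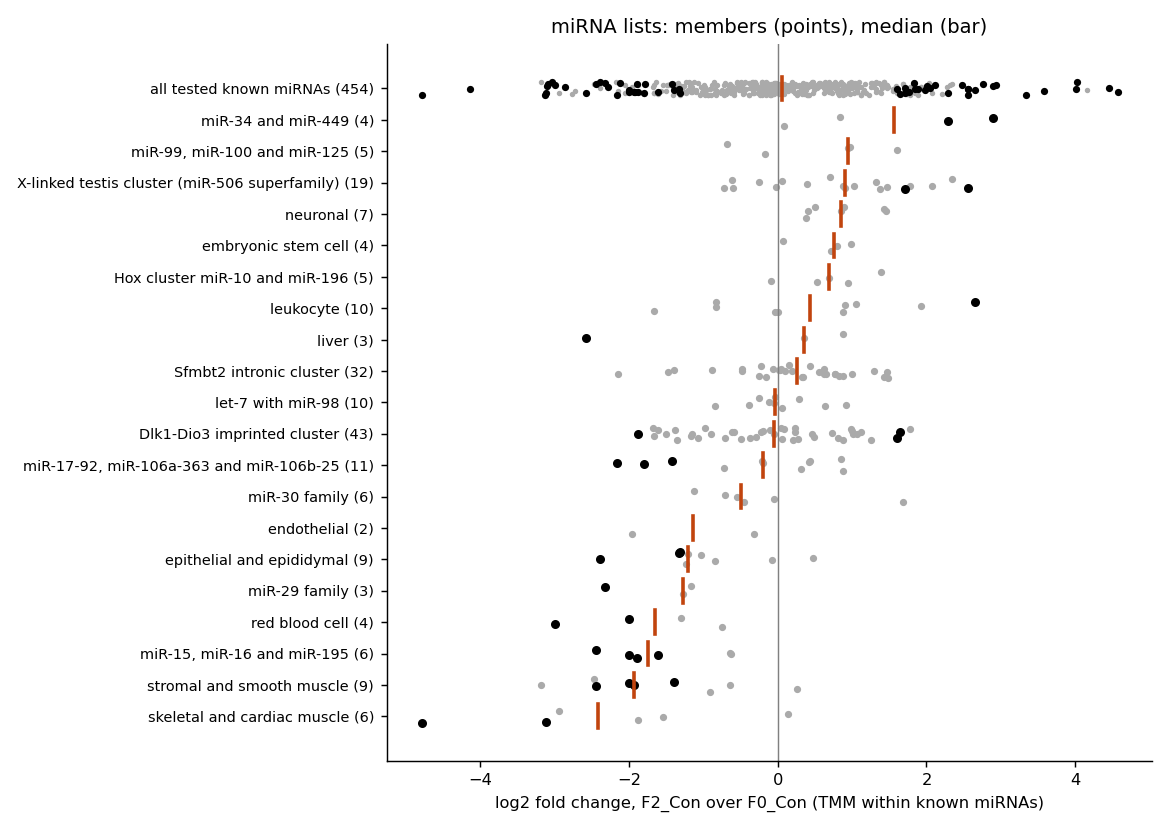
log2 fold change, F2_Con over F0_Con, of each tested member of 20 miRNA lists and of all 454 tested miRNAs; black points passed the test, grey points did not, and bars are medians. The list medians run from 1.57 for the miR-34 and miR-449 family to -2.41 for skeletal and cardiac muscle, against 0.05 over all miRNAs.

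Families tied to cell division differed among themselves. The miR-15, miR-16 and miR-195 group, whose members share a seed that targets cell cycle messages, gave 4 lower calls among 6 and a median of -1.75: miR-497a and miR-195a, given above, miR-15a and miR-322. miR-15a stood at 58.3, 66.1 and 93.4 TPM in F2_Con, against 321, 206 and 510 TPM in F0_Con (-1.61, SE 0.44, edgeR adjusted p = 0.0412). miR-322 stood at 68.8, 46.6 and 98.3 TPM in F2_Con, against 491, 156 and 612 TPM in F0_Con (-1.89, SE 0.49, adjusted p = 0.0412). Both were without overlap. The most read member, miR-16, was not called (-0.65, SE 0.43), although its groups did not overlap in TPM either. It stood at 3445, 2370 and 3709 TPM in F2_Con, against 9181, 3900 and 10,469 TPM in F0_Con. With each arm as an entry of its own, no 5p arm of these 6 was called. Their log2 fold changes were -1.31 (miR-15a), -2.99 (miR-322), -2.34 (miR-497a), 0.64 (miR-195a), 0.66 (miR-16) and 1.21 (miR-15b). For miR-195a the 3p arm had -3.52. The summed calls thus do not show that the shared seed fell.

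The growth-linked miR-17-92 cluster and its paralogs gave 3 lower calls among 11, against 6.39% called lower over all miRNAs, with 5 members positive, 6 negative and a median of -0.19. Its share of miRNA reads was 1.01% ± 0.278 in F2_Con and 0.682% ± 0.147 in F0_Con (SD, n = 3 each), and the groups overlapped. miR-19b, which shares its seed with miR-19a, stood at 149, 140 and 116 TPM in F2_Con, against 909, 690 and 566 TPM in F0_Con (-1.80, SE 0.52, adjusted p = 0.0425), and miR-19a at 1.30, 2.05 and 1.38 TPM in F2_Con, against 8.55, 8.50 and 15.9 TPM in F0_Con (-2.16, SE 0.58, adjusted p = 0.0412). The third, miR-106b, was named after its values were seen (-1.42, SE 0.43, adjusted p = 0.0468). The paralog miR-93 was not called, at 1861, 1869 and 1476 TPM in F2_Con, against 1954, 1380 and 1047 TPM in F0_Con (0.88). In the miR-29 family, which restrains collagen messages, miR-29c stood at 54.4, 54.0 and 70.3 TPM in F2_Con, against 397, 426 and 528 TPM in F0_Con (-2.32, SE 0.58, adjusted p = 0.0404). miR-29a (-1.28, SE 0.48, adjusted p = 0.0836) and miR-29b (-1.17, SE 0.40, adjusted p = 0.0634) had non-overlapping groups in TPM but missed the threshold.

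In the imprinted Dlk1-Dio3 cluster, expressed from the maternal chromosome in the soma, 2 of 43 tested miRNAs rose and 1 fell, fewer than the 12.6% called over all miRNAs would give, with a median of -0.05. With library totals 0 rose and 4 fell. miR-127 stood at 1350, 1123 and 2041 TPM in F2_Con, against 848, 764 and 616 TPM in F0_Con (1.60, SE 0.46, adjusted p = 0.0425; 0.271 with library totals). The other higher call was miR-485, named after its values were seen. miR-376c, in the same cluster, fell to 12.0, 4.92 and 8.50 TPM in F2_Con, against 32.9, 31.1 and 78.9 TPM in F0_Con (-1.88, SE 0.50, adjusted p = 0.0412). The cluster's summed share was 1.39% to 1.57% of miRNA reads in F2_Con and 0.631% to 0.811% in F0_Con. No member was called by edgeR in the let-7 family, which marks differentiated cells (10 tested), the miR-30 family (6), the miR-99, miR-100 and miR-125 group (5), the Hox cluster miRNAs (5), the embryonic stem cell list (4) or the Sfmbt2 intronic cluster (32). At an unadjusted p below 0.05 they gave 0, 2, 2, 1, 0 and 5 members in that order, and DESeq2 called 0, 2, 0, 1, 0 and 2. let-7c, the most read of these, stood at 26,046, 14,064 and 15,630 TPM in F2_Con, against 34,976, 9253 and 48,667 TPM in F0_Con (-0.04, SE 0.52). let-7a stood at 24,349, 10,785 and 11,183 TPM in F2_Con, against 11,973, 5257 and 21,798 TPM in F0_Con (0.91, SE 0.51). The members of the let-7 family and of the Sfmbt2 cluster are near-identical, so a split of shared reads could not be seen here.

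Several of the smallest p-values fell on little known miRNAs. miR-7241 had the smallest, at 12.9, 18.8 and 13.6 TPM in F2_Con, against 2.0, 1.18 and 1.23 TPM in F0_Con (4.01, SE 0.48, edgeR adjusted p = 0.000665). miR-5099 stood at 688, 625 and 724 TPM in F2_Con, against 229, 175 and 124 TPM in F0_Con (2.55, SE 0.46, adjusted p = 0.0141). miR-5100 stood at 96.2, 269 and 30.3 TPM in F2_Con, against 8.90, 6.0 and 12.4 TPM in F0_Con (4.57, SE 1.01, adjusted p = 0.0215). None of the 3 overlapped between the groups. The other higher calls among the 15 with the smallest p were miR-132, miR-7a, miR-1930, miR-6538, miR-3086, miR-204, miR-505 and miR-714, with log2 fold changes from 1.85 to 4.45. Of these, miR-132, an activity-induced miRNA of neurons, stood at 220, 142 and 206 TPM in F2_Con, against 95.8, 46.1 and 79.0 TPM in F0_Con (2.01, SE 0.41, adjusted p = 0.0147).

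On the lower side miR-101a, which represses the Polycomb enzyme Ezh2, stood at 4.89, 7.80 and 6.01 TPM in F2_Con, against 50.7, 86.7 and 110 TPM in F0_Con (-3.14, SE 0.58, edgeR adjusted p = 0.0141). miR-362 stood at 1.97, 0.719 and 2.07 TPM in F2_Con, against 13.5, 12.6 and 26.6 TPM in F0_Con (-2.87, SE 0.58, adjusted p = 0.0147). miR-210, the miRNA of hypoxia, stood at 13.4, 13.2 and 19.1 TPM in F2_Con, against 67.1, 94.5 and 70.2 TPM in F0_Con (-1.79, SE 0.49, adjusted p = 0.0412). All 3 were without overlap. miR-582, miR-5121 and miR-193a completed the 15 lower calls with the smallest p, with log2 fold changes of -1.92, -3.11 and -2.28.

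The calls were drawn from these same libraries, so their signs within each set are a description and no check on them. After centring each set on its median miRNA, 27 of the 28 higher calls were positive in both the low and the high set and 28 of the 29 lower calls were negative in both, whereas over all 454 miRNAs 166 were positive and 166 negative in both. The exceptions were miR-6412 among the higher calls, at -0.22 in the low set, and miR-3535 among the lower, at 0.47 in the high set. With a term for the sets in the model, chosen after seeing the data, edgeR called 89 miRNAs, including 26 of the 28 higher and 27 of the 29 lower calls. The low set alone holds 1 F2_Con library, so calls from a fit of that set are not counted. The calls rest on all libraries of the comparison, since leaving out 1 library left 15 (F0_Con replicate 1), 13 (F0_Con replicate 2), 14 (F0_Con replicate 3), 20 (F2_Con replicate 1), 10 (F2_Con replicate 2) and 14 (F2_Con replicate 3). Among the miRNAs with the smallest p, miR-7241, miR-5099, miR-34b, miR-34c, miR-497a, miR-101a and miR-362 were called each time, and the other 31 called miRNAs named by the rule lost the call at least once. The fold shrank by more than 1.5 times without F0_Con replicate 2 for miR-193a (-1.48), without F0_Con replicate 3 for miR-144 (-2.14), without F0_Con replicate 1 for miR-5121 (-2.05), and without F2_Con replicate 2 for miR-5100 (3.27), miR-6538 (3.42) and miR-714 (1.54), besides miR-143 and miR-206 above.

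**Figure D4:**
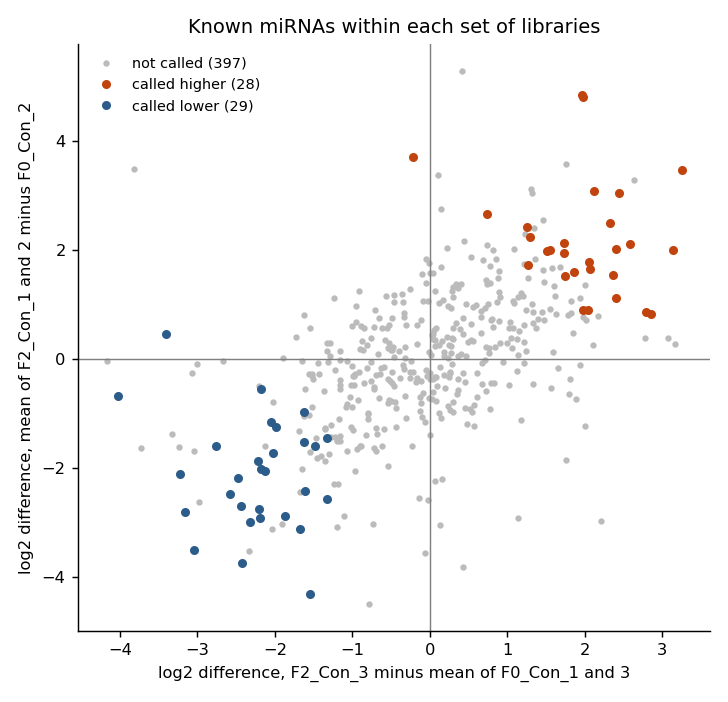
Each point is 1 of 454 tested miRNAs: the log2 difference (TPM with 0.5 added, centred on the median miRNA) between F2_Con and F0_Con in the set low in the tRNA-Ala entry (x axis) and in the set high in it (y axis). Called miRNAs (28 higher in orange, 29 lower in blue) lie in the upper right and lower left except miR-6412 and miR-3535; the calls used these libraries.

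The share of reads under each arm name varied widely among the libraries. Of 143 miRNAs with both arms listed and a mean of at least 100 TPM, the 5p share ranged over 50 percentage points or more among the 6 libraries in 74, and the median range was 51.5 points. For let-7a the 5p arm held 84.7%, 60.9% and 40.2% of reads in the F2_Con libraries, against 45.7%, 1.61% and 33.0% in the F0_Con libraries. For miR-1306 it held 14.3%, 14.6% and 12.1% in F2_Con, against 76.5%, 65.2% and 72.5% in F0_Con, a miRNA named after its values were seen. With each arm as an entry of its own, edgeR called 1 of 719 arms. That fit splits the reads over more entries, so its count does not measure how far arms varied. Given the swings in the 5p share, values of single arms are to be read with caution.

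Known piRNAs, matched by the authors to listed sequences, gave 8 calls among 6463 tested (0.124%), 1 higher (0.0155%) and 7 lower (0.108%); DESeq2 called 201, and 968 had an unadjusted p below 0.05. In TPM the groups did not overlap for 1089 (16.8%), of which 978 were higher (15.1%) and 111 lower (1.72%). mmu_piR_000219 stood at 4.68, 5.70 and 8.65 TPM in F2_Con, against 57.5, 76.4 and 115 TPM in F0_Con (-4.51, SE 0.77, edgeR adjusted p = 0.0417). mmu_piR_025113 had no read in the F2_Con libraries, against 1.84, 1.13 and 1.44 TPM in the F0_Con libraries, which puts it at least 10.9-fold lower against a floor of 3 reads per library (adjusted p = 0.0296). mmu_piR_018021 was the 1 that rose, at 1.63, 2.05 and 8.99 TPM in F2_Con, against 0.196, 0.142 and 0.267 TPM in F0_Con (3.53, SE 0.66, adjusted p = 0.0464). Most called piRNAs were thus read at a few TPM or less. No known piRNA was called by edgeR without F2_Con replicate 3 or without any single F0_Con library, and 13 were without F2_Con replicate 1.

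The most read piRNAs were not called. mmu_piR_000691 alone stood at 36,666, 67,259 and 5564 TPM in F2_Con, against 1176, 2462 and 6610 TPM in F0_Con. F2_Con replicate 3 lay inside the F0_Con range (3.09, SE 1.54, adjusted p = 0.35). mmu_piR_002643 did not overlap, at 3264, 3279 and 1525 TPM in F2_Con, against 276, 121 and 299 TPM in F0_Con, but missed the threshold (3.16, SE 0.97, adjusted p = 0.158; DESeq2 adjusted p = 0.00036).

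At an equal number of class reads, fewer different piRNAs were read in F2_Con sperm, although the class took a larger share of reads. After thinning each library to 512,207 known piRNA reads, 15,886, 12,801 and 16,911 distinct entries were left in the F2_Con libraries, against 21,380, 21,802 and 23,988 in the F0_Con libraries. The groups did not overlap (exact permutation test, two-sided, p = 0.1). These counts also depend on how far a few entries dominate. mmu_piR_000691, at 36,666 and 67,259 TPM in F2_Con replicates 1 and 2, left fewer of the thinned reads there for all other piRNAs. In F2_Con replicate 3 it stood at 5564 TPM, inside the F0_Con range. The thinning was not repeated without it. Predicted piRNAs, thinned to 195,349 reads, gave 32,003, 19,682 and 28,649 distinct entries in F2_Con, against 53,782, 44,177 and 61,596 in F0_Con, also without overlap (p = 0.1, exact). Known miRNAs, thinned to 3,664,238 reads, gave 660, 644 and 646 in F2_Con, against 668, 659 and 682 in F0_Con, which overlap (exact permutation p = 0.2).

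**Figure D5:**
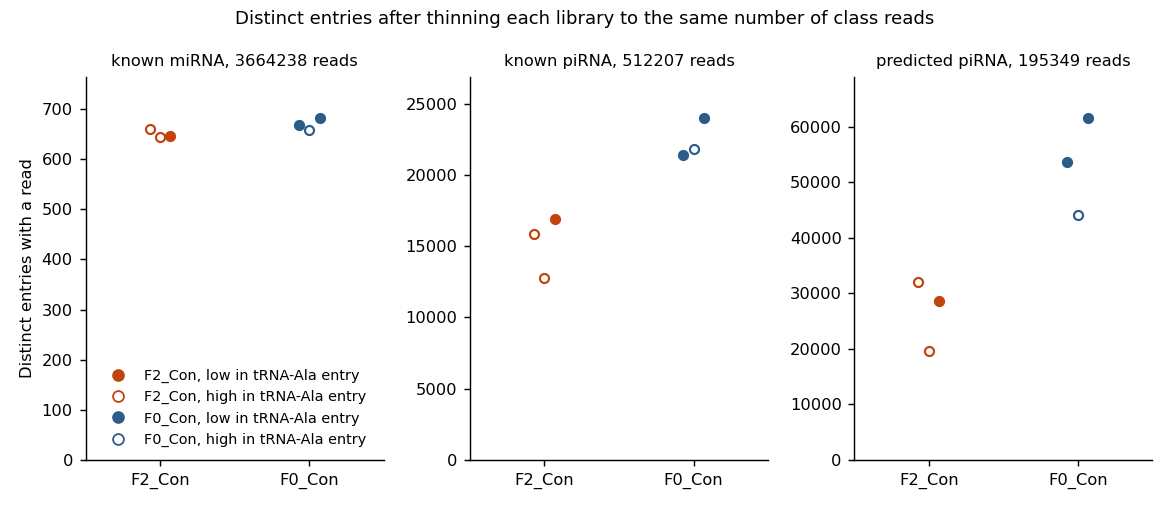
Distinct entries with a read after thinning each library to the same number of reads of the class, for known miRNAs, known piRNAs and predicted piRNAs, with F2_Con (orange) left of F0_Con (blue) and open points for libraries high in the tRNA-Ala entry. The piRNA panels show 12,801 to 16,911 and 19,682 to 32,003 entries in F2_Con, below the 21,380 to 23,988 and 44,177 to 61,596 in F0_Con.

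Predicted piRNAs are reads that the submitters assigned to repeats. The 3 shown here, printed with the first base in capitals, are the 1 that was called, the most read, and the one with the widest gap among the most read.
novel_pir492911: Ggggaaagaagaccctgttgagctt
novel_pir83653: Cgtttcccggccaatgcacca
novel_pir661187: Aagactatactttcagggatc
None of the 3 begins with T. By reads, T was the first base of 12.8%, 10.4% and 29.9% of predicted piRNA reads in the F2_Con libraries, against 20.1%, 17.2% and 24.8% in the F0_Con libraries, and the mean length was 20.8, 20.3 and 22.7 bases in F2_Con, against 21.2, 20.9 and 20.9 bases in F0_Con. Most reads under this name thus lacked the first base and the length that piRNAs usually have.

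edgeR called 1 of 947 predicted piRNAs (0.106%), and the groups did not overlap in TPM for 147 (15.5%), 88 higher (9.29%) and 59 lower (6.23%); 137 had an unadjusted p below 0.05 and DESeq2 called 98. novel_pir492911, assigned to a LINE-1 element on chromosome 19, had no read in F2_Con, against 31.0, 1.61 and 44.1 TPM in F0_Con, at least 189-fold lower against the floor of 3 reads per library (edgeR adjusted p = 0.0438). That call was lost without F0_Con replicate 1 or 3 and without any single F2_Con library, and 6 entries were called without F0_Con replicate 2. novel_pir661187, assigned to LINE-1 on chromosome 5, had no read in F2_Con either, against 1157, 0.0945 and 797 TPM in F0_Con. It was not called by edgeR (adjusted p = 0.112), F0_Con replicate 2 was near the floor, and its letters also occur in 10 snoRNA genes. novel_pir83653, assigned to an ERV1 long terminal repeat on chromosome 10, was high in the high set of both groups, at 2220, 7042 and 91.8 TPM in F2_Con, against 37.3, 791 and 32.8 TPM in F0_Con (adjusted p = 0.541). Of the 947, 62 were found letter for letter in a structural RNA of GENCODE. By repeat family, ERVL reads made up 4.42% ± 1.96 of predicted piRNA reads in F2_Con and 9.80% ± 1.83 in F0_Con (SD, n = 3 each). ERVL was the 1 family of the 7 described whose groups did not overlap (exact permutation p = 0.1). LINE-1 reads made up 22.8% ± 10.2 in F2_Con and 32.2% ± 7.21 in F0_Con (p = 0.2, exact). ERV1 reads made up 36.8% ± 20.6 in F2_Con and 12.8% ± 5.44 in F0_Con (p = 0.2, exact). By library the ERV1 share was 38.2%, 56.7% and 15.6% in F2_Con, against 9.30%, 19.0% and 9.97% in F0_Con, higher in the high set of each group. The ERV1 entries novel_pir249668 and novel_pir83664, near-identical to novel_pir83653, were also higher in the high set of each group. What RNA the reads of these entries and of novel_pir492911 come from was not tested.

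Of 59 predicted siRNAs 3 were called (5.08%), 1 higher (1.69%) and 2 lower (3.39%), and 12 did not overlap in TPM (20.3%), 9 higher (15.3%) and 3 lower (5.08%). novel_sir15806 stood at 212, 362 and 24.4 TPM in F2_Con, against 2.59, 4.06 and 3.95 TPM in F0_Con, without overlap (4.13, SE 1.04, edgeR adjusted p = 0.0279). novel_sir2660 stood at 1.13, 2.38 and 1.03 TPM in F2_Con, against 38.5, 5.95 and 12.0 TPM in F0_Con (-5.07, SE 1.10, adjusted p = 0.0191). novel_sir5584 rested on 19 reads in F0_Con and 0 in F2_Con, at least 2.06-fold lower. edgeR called 0 siRNAs without F0_Con replicate 1, F2_Con replicate 1 or F2_Con replicate 2, and 1 without F0_Con replicate 3.

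Predicted miRNAs are sites scored as hairpins by the submitters' tools, and 3 of 240 fell (1.25%) while 0 rose; edgeR gave 38 at an unadjusted p below 0.05, and DESeq2 called 14. In TPM 40 did not overlap (16.7%), 26 higher (10.8%) and 14 lower (5.83%). The 3, as deposited and with bases 2 to 8 in capitals, were these.
novel_mir4212: gGGCGGGCggggccgggggu
novel_mir4375: gGCGGCGCggggcggggg
novel_mir5550: aCGGUCUGggaaaaggcuccu
novel_mir4212 lies at chr7:109865617-109865693 (mm10, minus strand) in a UTR of Scube2, whose protein helps release hedgehog ligands. It stood at 0.586, 0.664 and 0.230 TPM in F2_Con, against 35.1, 34.3 and 110 TPM in F0_Con (-7.16, SE 0.85, edgeR adjusted p = 0.000129). novel_mir4375, at chr7:4740244-4740299 on the strand opposite a UTR of Kmt5c, a histone methyltransferase, had no read in F2_Con, against 3.57, 1.18 and 13.1 TPM in F0_Con, at least 44.0-fold lower (adjusted p = 0.0104). novel_mir5550, at chr11:117077243-117077326 (plus strand) in an exon of Snhg20 and of Gm26083, a scaRNA gene, stood at 0.502, 0.885 and 0.153 TPM in F2_Con, against 23.8, 1.89 and 33.8 TPM in F0_Con (-5.36, SE 1.2, adjusted p = 0.0369). Without any single F0_Con library edgeR called 1 of the class. In F1_Con the 3 averaged 0.830, 0 and 0.316 TPM. novel_mir4212 and novel_mir4375 are made almost wholly of G and C.

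The 5 most read predicted miRNAs lay in genes of structural RNA and were not called. novel_mir6624, novel_mir4 and novel_mir1 overlapped tRNA genes, and novel_mir6543 and novel_mir5152 overlapped rRNA genes. Entries that overlap a RefSeq tRNA gene held 86.3%, 59.1% and 11.9% of predicted miRNA reads in the F2_Con libraries, against 43.5%, 97.1% and 32.0% in the F0_Con libraries. The sets were drawn by novel_mir1, itself 1 of these entries. novel_mir6624 and novel_mir4, in 2 tRNA-Trp genes, share the seed CCUCGUG. novel_mir6624 stood at 532, 972 and 14.4 TPM in F2_Con, against 1237, 35,202 and 844 TPM in F0_Con, where F0_Con replicate 2 was far above the rest (adjusted p = 0.234).

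Entries named by Rfam family, a catalogue of structural RNA, gave 47 calls among 231 (20.3%), 15 higher (6.49%) and 32 lower (13.9%). They are given by ID, and whether their reads come from mouse RNA was not tested. The split turned with the scale: edgeR called 27 higher and 7 lower with library totals and 17 higher and 12 lower with DESeq2 size factors, and DESeq2 called 36 higher and 31 lower, so no direction is given for the class. The count was 10 to 31 with 1 library left out, lowest without F2_Con replicate 2. The best-read call among those named was RF01960, at 656, 1233 and 3381 TPM in F2_Con, against 5983, 5700 and 3853 TPM in F0_Con, without overlap (-2.84, SE 0.65, edgeR adjusted p = 0.00952). RF01677 stood at 6.82, 10.4 and 75.7 TPM in F2_Con, against 0.0784, 0.0945 and 0 TPM in F0_Con (7.51, SE 1.23, adjusted p = 0.0037). RF00188 stood at 0.962, 0.609 and 1.26 TPM in F2_Con, against 65.1, 5.05 and 10.2 TPM in F0_Con (-5.55, SE 1.05, adjusted p = 0.0041). In TPM the groups did not overlap for 79 families (34.2%), 55 higher (23.8%) and 24 lower (10.4%), the reverse of the called split. The median family was at -0.19 with TMM and at 0.81 with library totals. RF00005 swung widely within both groups and stood at 251, 659 and 20,402 TPM in F2_Con, against 11,546, 43.2 and 4718 TPM in F0_Con (adjusted p = 0.712).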

How the data were processed

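Small RNA reads of ICR mouse sperm were taken from 1 table of the whole series with a list per library. The authors deposited whole-number read counts and TPM values, per the file headers; in every entry of the 13 libraries used the deposited TPM was the count divided by the library total and multiplied by 1000000, with no length term. The submitters' processing notes name mm10; no aligner, counter or prediction tool is given in the sources used here. Groups follow the labels. Entries with at least 1 TPM in at least 3 libraries were fitted per class with edgeR 4.0.16 (R 4.3.3; TMM within the class, quasi-likelihood F test, two-sided, Benjamini-Hochberg within the class, threshold 0.05), as group means over the 13 libraries with whole lists, contrast F2_Con minus F0_Con. These 13 hold the F0_Con, F0_NHS, F1_Con and F2_Con libraries and 1 F2_NHS library, with totals of 18,072,900 to 29,430,555 reads. Arms and numbered loci of a miRNA were summed; SE is the log2 fold change divided by the root of F. DESeq2 1.42.0 was run beside it, and class shares were compared by exact permutation tests (scipy 1.17.1). Floors of 3 reads cover counting error only.

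Named entries are the 15 called miRNAs with the smallest p in each direction, the 10 most read, up to 4 of the most read of each list, and for the other classes the 5 called with the smallest p each way and the 5 most read. The groups, lists and alternatives were chosen with earlier results of these data known. The split by novel_mir1 and the fits that use it were added after seeing the data. Of the 454 tested miRNAs 373 matched a RefSeq mature sequence, and predicted precursors are placed on mm10. Known piRNA sequences were not used here. On simulated counts for the 454 miRNAs, edgeR recovered 56.67% of 4-fold and 96.67% of 16-fold changes, with 3 false calls of 79. For 946 predicted piRNAs it recovered 1.61% of 16-fold and 46.03% of 256-fold changes, and for 59 predicted siRNAs 0 of 4 changed by 16-fold, so few calls there say little. All simulated counts were drawn entry by entry from the spread that edgeR fitted, without sets of libraries. They therefore do not give the rate of false calls among the real calls.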

Additional observations from a re-analysis of the deposited data

How the results depend on the processing

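Counts of calls depended on the setting, and for some classes so did the split between higher and lower calls. edgeR's quasi-likelihood test gave 57 known miRNAs; the count was 110 with DESeq2, 1 with all classes in 1 fit, 1 with arms apart, 24 with numbered loci apart and 36 with only the 6 control libraries, and with no filter the split was 13 higher and 46 lower. The 8 known piRNAs became 201 with DESeq2, 4 in 1 fit, 0 with library totals, 255 with no filter and 5 with only the 6 control libraries. The 47 Rfam families became 29 with DESeq2 size factors, 3 in 1 fit and 9 at 10 TPM or more, and with no filter 25 were higher and 17 lower. The 3 predicted miRNAs became 14 with DESeq2, 1 in 1 fit, 5 with library totals and 24 with no filter. The 1 predicted piRNA became 98 with DESeq2, 4 with its size factors, 9 in 1 fit, 0 with library totals, 19 with no filter and 0 with only the 6 control libraries. The 3 predicted siRNAs became 8 with DESeq2, 0 in 1 fit and 0 with no filter. Under settings chosen after seeing the data, only the low set gave 0 known miRNAs, 27 known piRNAs, 7 Rfam families, 30 predicted miRNAs, 90 predicted piRNAs and 6 predicted siRNAs. A term for the sets gave 89 known miRNAs, 20 known piRNAs, 10 predicted miRNAs, 30 predicted piRNAs and 10 predicted siRNAs. Leaving out 1 library left 10 to 20 known miRNAs, 0 to 13 known piRNAs, 10 to 31 Rfam families, 1 to 3 predicted miRNAs, 0 to 6 predicted piRNAs and 0 to 3 predicted siRNAs. Among class shares it gave differences from -1.26 to 1.49 points for Rfam, -2.51 to 0.953 for predicted miRNAs and -0.305 to 1.28 for exons, and within the high set the Rfam difference was -0.0467 and the exon difference -1.05 points; the other 7 classes kept their sign. The cause of these changes was not tested. Over the 100 named miRNAs no setting turned a called fold change round. With the replicate number as a block edgeR called 12 known miRNAs, 2 known piRNAs, 30 Rfam families, 0 predicted piRNAs and 0 predicted siRNAs. The numbers are not shown to pair the samples: over miRNAs the deviations of equal-numbered F2_Con and F0_Con libraries correlated at -0.022, 0.358 and 0.309, against up to 0.25 between different numbers. With 3 libraries a group no exact test on a class share can go below 0.1, and entries read at under 1 TPM rest on few reads.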
